A study of Homo sapiens with 6 samples.

Results

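The genes described here encode the subunits of the oxidative phosphorylation system, which lie on both the mitochondrial and the nuclear genome. Members were chosen by symbol: names that begin with MT-ND, MT-CO, MT-CYB or MT-ATP, NDUFA, NDUFB, NDUFC, NDUFS or NDUFV followed by digits, SDHA to SDHD, and names that begin with UQCR, COX4 to COX8 or ATP5. Symbols ending in P or in P and digits, the usual form of a pseudogene name, were left out, as were genes with no count in any library. That gave 98 members of 60605 genes in the table, 13 mitochondrially encoded and 85 nuclear encoded. In all, 101 symbols matched, and COX4I2, COX6A2 and COX7B2 had no count in any library. Read by the letter, the clause on endings would also drop MT-ATP6 and MT-ATP8. These were kept because the rule names the MT-ATP genes, and without them there would be 96 members, 11 of them mitochondrially encoded.

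The study asked what overexpression of ELAPOR1, a membrane protein of endosomes and lysosomes, does to gene expression in SW620, an established human colorectal cancer cell line. The ELAPOR1 group (3 libraries) carried a lentivirus with ELAPOR1 in the plasmid pLVX-IRES-Puro, and the vector group (3 libraries) carried the same plasmid with no insert. Both groups were infected at a multiplicity of 20, were selected with puromycin at 2 ug/ml, and grew in DMEM with 10% fetal bovine serum. Poly(A) RNA was taken with oligo(dT) beads and primed at random. The labels do not say whether the selected cells were pools or single clones, nor whether the 3 libraries of a group came from separate infections or cultures. The p-values therefore reflect the spread among these 6 libraries alone, and that spread may be technical.

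Oxidative phosphorylation passes electrons from NADH and succinate through complexes I to IV to oxygen, and complex V uses the proton gradient so built to make ATP. The mitochondrial genome encodes only core, membrane-embedded subunits of complexes I, III, IV and V, whose mRNAs are cut from long precursor transcripts, while every subunit of complex II and the other subunits of the remaining complexes are made from nuclear genes and imported. The supply of the subunits from the separate genomes has to be matched during assembly, and colorectal cancer cells use this system beside glycolysis.

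Library totals lay between 16401813 and 20571924 counts. ELAPOR1 itself took 2.12%, 2.10% and 2.06% of counts in the ELAPOR1 libraries and at most 0.00116% in a vector library. Of 11 colon epithelial markers, 10 had a count in every library and CDX1 had at most 2 counts. Their summed level was 7609 to 7623 CPM (counts per library total on the usual scale, with TMM factors) in ELAPOR1 libraries and 8016 to 8433 CPM in vector libraries. Most of it came from KRT8 and KRT18, at means of 3782 and 2381 CPM in ELAPOR1 cells and 4163 and 2425 CPM in vector cells. The 9 markers of immune, endothelial, fibroblast and packaging cells summed to 5.54 to 6.28 CPM in ELAPOR1 libraries and 5.52 to 6.25 CPM in vector libraries, and 4 of them had a count in every library. The highest of these, COL1A1, averaged 2.45 CPM in ELAPOR1 cells and 2.56 CPM in vector cells. Of the colon list, KRT20, GPA33, LGALS4 and CDX1 averaged less than COL1A1 in both groups. KRT20 averaged 0.68 and 2.20 CPM, GPA33 1.03 and 0.96 CPM and LGALS4 0.90 and 0.41 CPM, in the same order of groups. EPCAM, VIL1, CDX2, CDH17, KRT8, KRT18 and KRT19 averaged more. Of the members, 92 passed the filter on low counts. Over the 16003 genes tested with edgeR (quasi-likelihood test, two-sided, Benjamini-Hochberg adjusted p under 0.05 as the threshold), 10.0% were called higher and 11.4% were called lower in ELAPOR1 cells, and the median log2 fold change was 0.0041.

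Of the 13 mitochondrially encoded mRNAs, 5 rose in ELAPOR1 cells and none fell, against the background shares of 10.0% and 11.4%. The risers were MT-ND4, MT-ND1 and MT-ND5 of complex I, MT-CO1 of complex IV and MT-ATP6 of complex V. The changes were small: the median of the 13 log2 fold changes was 0.049 and positive under every alternative tried, 12 of the 13 were above 0, and the range was -0.11 to 0.15. The quartiles over all genes tested were -0.130 and 0.155, and all 13 estimates lay between them. Standard errors of the 13 were 0.018 to 0.046. The calls therefore do not mark changes larger than those of most genes. In 5 of the 13 all ELAPOR1 libraries lay above all vector libraries, an arrangement seen in 16.4% of the genes tested, and in 0 of the 13 they lay below, against 17.4% of the genes tested. In RNA from whole cultures, fewer cells with a transcript and less of it per cell cannot be told apart.

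MT-ND4 (chromosome MT, 10760 to 12137, plus strand), a core subunit in the proton-pumping arm of complex I, had 6008, 6390.0 and 6098 CPM in the ELAPOR1 libraries, against 5528, 5679 and 5445 CPM in the vector libraries. The groups did not overlap, and the difference was 11.1%, a log2 fold change of 0.15 ± 0.022 (SE), edgeR adjusted p = 5.36e-08. MT-ND1 (chromosome MT, 3307 to 4262), the core membrane subunit next to the ubiquinone site, had 2041, 2043 and 2044 CPM in the ELAPOR1 libraries, against 1885, 1859.7 and 1873 CPM in the vector libraries. Its 3 ELAPOR1 libraries were nearly equal and all above the vector libraries, with a log2 fold change of 0.13 ± 0.024 (SE), edgeR adjusted p = 2.19e-05. MT-ND5 (chromosome MT, 12337 to 14148), another pumping subunit, had 2935, 3205 and 3169 CPM in the ELAPOR1 libraries, against 3069, 2875 and 2911 CPM in the vector libraries. ELAPOR1 library 1 lay among the vector libraries, so the groups overlapped. The log2 fold change of MT-ND5 was 0.072 ± 0.025 (SE), edgeR adjusted p = 0.0285, and its call was lost under 11 of 19 alternatives. Those of MT-ND4, MT-ND1 and MT-CO1 were lost under 1 of 19 each, the limma fit of log2(FPKM + 1) without a filter, and that of MT-ATP6 under 4.

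The other complex I members of the mitochondrial genome did not pass the test. MT-ND2 had 2780.4, 2837 and 2779 CPM in the ELAPOR1 libraries, against 2637, 2729 and 2695 CPM in the vector libraries, and all ELAPOR1 libraries were above all vector libraries. Its log2 fold change was 0.059 ± 0.023 (SE), edgeR adjusted p = 0.0544. MT-ND2 did pass under 4 of 19 alternatives, among them both DESeq2 fits and the replicate block. MT-ND3, MT-ND4L and MT-ND6 had overlapping groups, with log2 fold changes of 0.0093 (adjusted p = 0.877), 0.042 (adjusted p = 0.463) and 0.022 (adjusted p = 0.714) by edgeR. MT-ND6 (chromosome MT, 14149 to 14673) is the only member on the minus strand of the mitochondrial genome, and averaged 472 ± 34.5 CPM in ELAPOR1 cells and 465 ± 9.57 CPM in vector cells (SD, n = 3 each). MT-CYB, cytochrome b and the one mitochondrially encoded subunit of complex III, had 3803, 3821 and 3854 CPM in the ELAPOR1 libraries, against 3553, 3876 and 3804 CPM in the vector libraries. Vector library 1 lay below the narrow ELAPOR1 range and vector library 2 above it, and the log2 fold change was 0.031 ± 0.023 (SE), edgeR adjusted p = 0.387.

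MT-CO1 (chromosome MT, 5904 to 7445, plus strand), the catalytic subunit of cytochrome c oxidase, was the member with the most counts and had 17004, 17259.8 and 16892 CPM in the ELAPOR1 libraries, against 15638, 15976 and 15799.6 CPM in the vector libraries. The groups did not overlap, and the log2 fold change was 0.11 ± 0.018 (SE), edgeR adjusted p = 1.63e-06. MT-CO2, which takes the electrons from cytochrome c, had 6946, 6819 and 6922 CPM in the ELAPOR1 libraries, against 6503, 6849.5 and 6646 CPM in the vector libraries. Vector library 2 lay inside the ELAPOR1 range, and the log2 fold change was 0.049 ± 0.021 (SE), edgeR adjusted p = 0.0841. MT-CO3, the remaining core subunit, had 9655, 9509.6 and 9534 CPM in the ELAPOR1 libraries, against 9310.0, 9517 and 9381 CPM in the vector libraries. Its groups overlapped by a small margin, and the log2 fold change was 0.025 ± 0.019 (SE), edgeR adjusted p = 0.41. MT-CO1 made up 30.6% ± 0.204 of the mitochondrially encoded mRNA counts in ELAPOR1 libraries and 29.9% ± 0.0701 in vector libraries (SD, n = 3 each).

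The complex V pair MT-ATP8 and MT-ATP6 is shown with its sequence because both genes lie on 1 transcript and share bases, so their counts are not separate measurements of separate RNAs. MT-ATP8 ends inside MT-ATP6. The shared stretch of 46 bases, 22.2% of MT-ATP8 and 6.76% of MT-ATP6, is in capitals in the first line, and the 7 bases that MT-ND4L shares with MT-ND4 are in capitals in the second (GRCh38, plus strand, from GENCODE 29 transcripts). The sources used here do not give how reads over shared bases were assigned.
MT-ATP8 and MT-ATP6, chrM:8515-8584, plus strand: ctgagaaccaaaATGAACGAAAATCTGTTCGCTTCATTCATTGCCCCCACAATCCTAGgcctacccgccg
MT-ND4L and MT-ND4, chrM:10748-10778, plus strand: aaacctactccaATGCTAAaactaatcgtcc

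MT-ATP6 (chromosome MT, 8527 to 9207), the subunit that forms the proton path beside the c-ring, had 2398, 2559 and 2477 CPM in the ELAPOR1 libraries, against 2293, 2363 and 2355 CPM in the vector libraries. The groups did not overlap, and the log2 fold change was 0.085 ± 0.024 (SE), edgeR adjusted p = 0.00597. MT-ATP8 (chromosome MT, 8366 to 8572), a small stator subunit and the shortest of the 13 genes, had 132, 137 and 156 CPM in the ELAPOR1 libraries, against 166, 144 and 147 CPM in the vector libraries. The groups overlapped, and MT-ATP8 was the only one of the 13 with a negative log2 fold change, -0.11 ± 0.046 (SE), edgeR adjusted p = 0.0884. The pair on the shared transcript therefore had estimates of opposite sign, of which only that of MT-ATP6 passed the test, and the difference between them was not tested. MT-ND4L and MT-ND4, the other pair shown, had log2 fold changes of 0.042 and 0.15, with only MT-ND4 past the threshold. MT-ATP6 and MT-CO3 also meet, since both include base 9207.

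**Figure D1:**
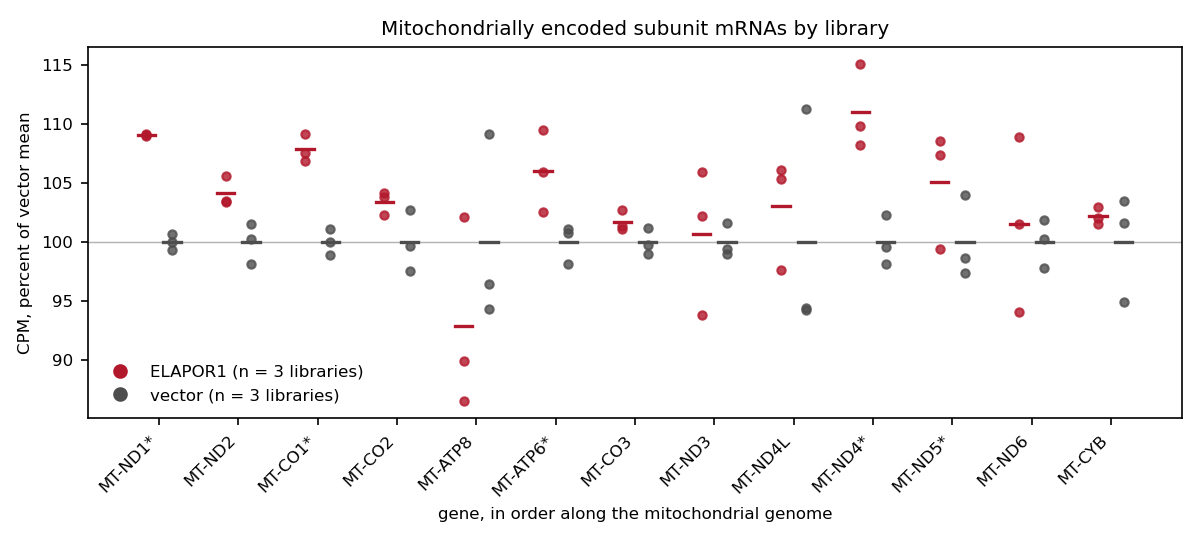
CPM of each of the 13 mitochondrially encoded subunit mRNAs in each library, as a percent of the vector mean (vertical axis), in order along the mitochondrial genome (horizontal axis); points are libraries, short bars are group means (n = 3 each), and an asterisk marks a gene called higher by edgeR at an adjusted p under 0.05. The ELAPOR1 points of MT-ND1, MT-CO1, MT-ATP6 and MT-ND4 lie above all vector points, those of MT-ND5 do not, and the mean of MT-ATP8 lies below 100.

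The mitochondrial rRNAs, which share the plus strand precursor with most of these mRNAs, also rose in these counts. RNA was taken with oligo(dT) beads, so the counts cover only rRNA that the beads retained. Total rRNA was not measured. MT-RNR2, the large subunit rRNA, had 11173, 11098 and 11447 CPM in the ELAPOR1 libraries, against 9223, 9141 and 9498 CPM in the vector libraries, a log2 fold change of 0.28 ± 0.020 (SE), edgeR adjusted p = 1.73e-19. This estimate was larger than that of every mitochondrially encoded mRNA. MT-RNR1, the small subunit rRNA, had 1192, 1176 and 1187 CPM in the ELAPOR1 libraries, against 1049, 1087 and 1082 CPM in the vector libraries, a log2 fold change of 0.14 ± 0.026 (SE), edgeR adjusted p = 8.97e-06. Neither rRNA had overlapping groups. Together they took 1.23% ± 0.0181 of counts in ELAPOR1 libraries and 1.04% ± 0.0192 in vector libraries (SD, n = 3 each). Of the tRNA genes only MT-TP had more than 4 counts in a library, and its log2 fold change was 0.044 ± 0.043 (SE), edgeR adjusted p = 0.536.

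Nuclear copies of mitochondrial genes can take reads from them. MTATP6P1 (chromosome 1, 633696 to 634376) differs from MT-ATP6 at 10 of 681 aligned bases, MTND2P28 from MT-ND2 at 17 of 1042 and MTCO1P12 from MT-CO1 at 20 of 1542. MTATP6P1 held 4446, 5638 and 4808 counts in ELAPOR1 libraries and 5545, 6083 and 4397 counts in vector libraries, below the 38828 to 49008 of MT-ATP6. Of the copies, 3 were tested and none passed. The smallest p was that of MTND2P28, with a log2 fold change of 0.037 ± 0.042 (SE), edgeR adjusted p = 0.611. With all copies added to the mitochondrially encoded mRNAs, their summed share of counts was 0.210 percentage points higher in ELAPOR1 libraries, against 0.211 points without the copies.

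Summed over genes, the mitochondrially encoded mRNAs took 5.48%, 5.59% and 5.52% of all counts in ELAPOR1 libraries, against 5.28%, 5.37% and 5.30% in vector libraries. The 85 nuclear members took 0.842%, 0.839% and 0.854% in ELAPOR1 libraries, against 0.858%, 0.886% and 0.879% in vector libraries. In both sums the groups did not overlap, the mitochondrial share being higher and the nuclear share lower in ELAPOR1 libraries. The transgene takes part of the total: with ELAPOR1 left out of it, the mitochondrial shares were 5.65% ± 0.0594 in ELAPOR1 libraries and 5.32% ± 0.050 in vector libraries (SD, n = 3 each). The nuclear shares then overlapped, with 0.860%, 0.857% and 0.872% in ELAPOR1 libraries and 0.858%, 0.886% and 0.879% in vector libraries. The ratio of mitochondrial to nuclear counts does not depend on the library total. It was 6.504, 6.66 and 6.46 in ELAPOR1 libraries and 6.16, 6.06 and 6.03 in vector libraries, or 6.54 ± 0.107 and 6.08 ± 0.0654 (SD, n = 3 each). These sums were given no test, since the genes were chosen with earlier results known. MT-CO1 alone holds close to 30% of the mitochondrial sum, so the ratio follows that gene more than any other.

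**Figure D2:**
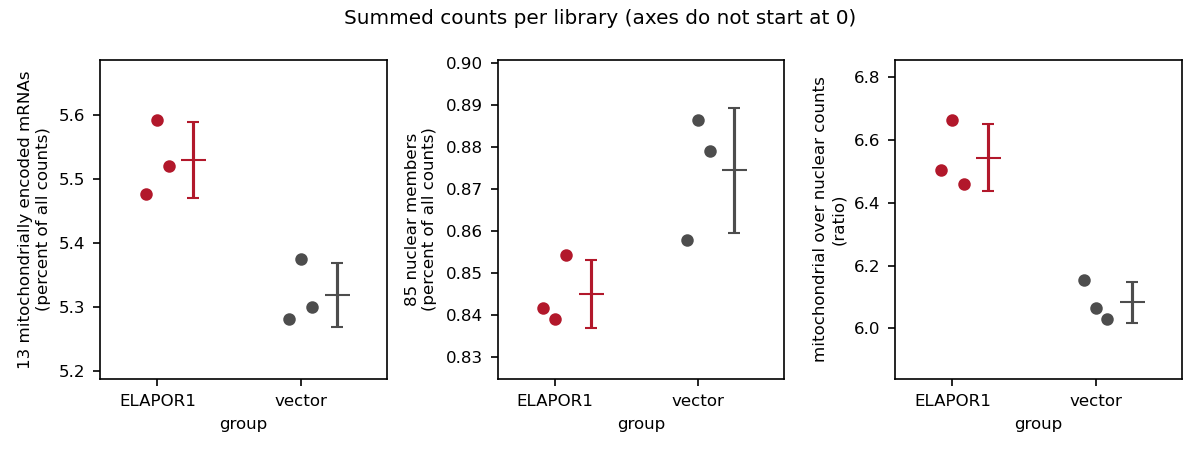
Summed counts in each library, from left to right the share of the 13 mitochondrially encoded mRNAs and of the 85 nuclear members in all counts (percent) and the ratio of the sums; points are libraries, and bars show the mean ± SD (n = 3), on axes that do not start at 0. The ELAPOR1 points lie above the vector points in the left and right panels and below them in the middle panel, where they span 0.839% to 0.854% against 0.858% to 0.886%.

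Levels were compared between genes in the authors' FPKM, which divides by exonic length. Group means of the mitochondrially encoded mRNAs ran from 677 FPKM for MT-ATP8 in ELAPOR1 cells to 12091 FPKM for MT-CO3 in ELAPOR1 cells. Group means of the tested nuclear members ran from 1.56 FPKM for NDUFA7 in vector cells to 581 FPKM for ATP5F1B in ELAPOR1 cells, so every mitochondrially encoded mRNA stood above every nuclear one. MT-CO1 averaged 10958 ± 145 FPKM in ELAPOR1 cells and 10310.2 ± 87.4 FPKM in vector cells (SD, n = 3 each). The authors' exonic length is the union of all exons of a gene, which reaches 19359 bases for NDUFA10 and lowers the FPKM of such genes.

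**Figure D3:**
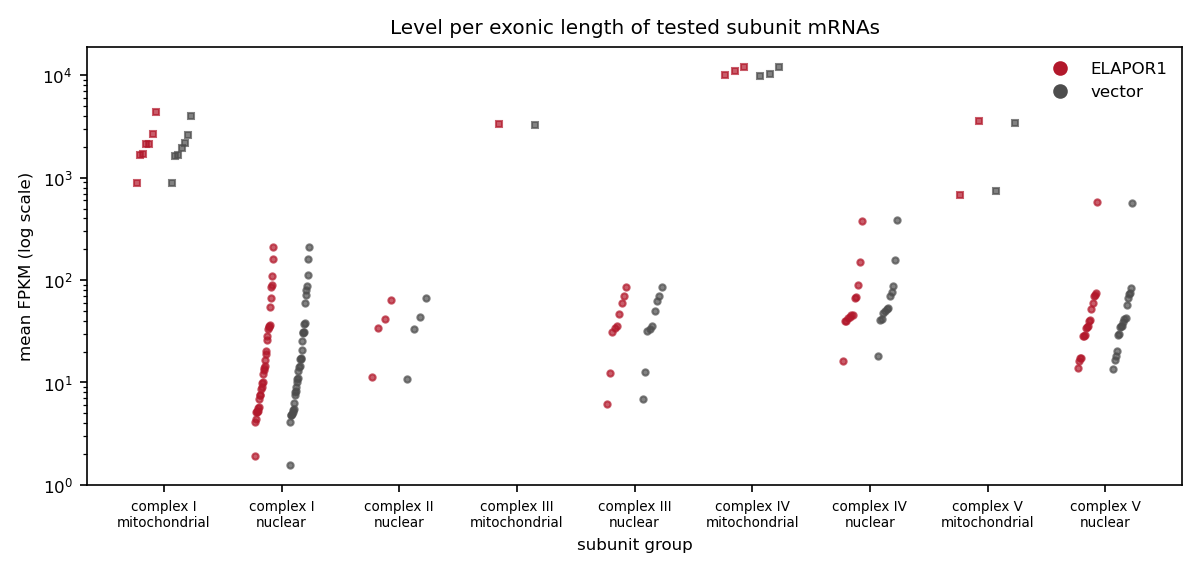
Mean FPKM of each tested subunit mRNA (vertical axis, log scale) by complex and genome (horizontal axis), with ELAPOR1 means left of vector means; squares are mitochondrially encoded and circles nuclear encoded genes (each point a mean over n = 3 libraries). The squares lie between 677 and 12091 FPKM and the circles between 1.56 and 581 FPKM in both groups together.

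Of the 79 nuclear members tested, 5 rose and 14 fell in ELAPOR1 cells, 6.33% and 17.7% of them, against the background shares of 10.0% and 11.4%. Scaling by library sizes alone gave 2 higher and 18 lower. The median log2 fold change was -0.028, with 27 above 0 and 52 below, and it was negative under every alternative tried. It was -0.051 without vector replicate 1, -0.013 without vector replicate 2 and -0.049 with library sizes alone. In the limma fits on FPKM it was -0.049 to -0.046. The median over all genes tested moved too, from 0.0041 in the main fit to -0.017 with library sizes alone. In the limma fits the all-gene median was -0.021 on log2(FPKM + 0.1), -0.017 on log2(FPKM + 1) and -0.00073 on the latter without a filter. Without vector replicate 1 or 2 it was 0.0042 or 0.0031. In the authors' deposited table, 4 nuclear members were called with a positive and 14 with a negative log2 fold change, beside 5 and 0 of the mitochondrially encoded. The genes were not all the same. The deposited calls included MT-ND2 (deposited adjusted p = 0.0374), but not MT-ND5 (deposited adjusted p = 0.345) or NDUFS6 (deposited adjusted p = 0.322). The share of all genes called in that table was not computed. In 4 of the 79 all ELAPOR1 libraries lay above and in 17 they lay below all vector libraries, against 16.4% and 17.4% of all genes tested. Leaving out 6 symbols that name no subunit in use, among them COX7A2L, ATP5IF1 and UQCRHL, left 76 tested genes with 5 higher and 13 lower. The higher calls were in complexes I and III, and the lower calls in complexes I, IV and V. Complex IV had 5 lower of 12 tested, complex V 6 of 18 and complex I 3 of 36, and whether the complexes differ was not tested.

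**Figure D4:**
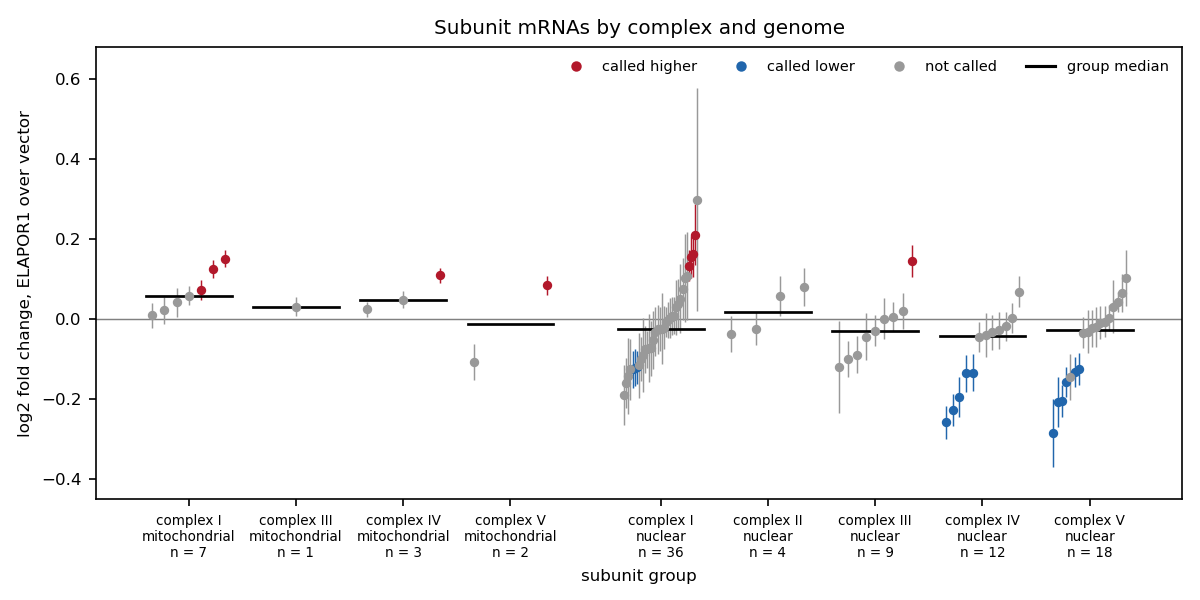
Log2 fold change of each tested member, ELAPOR1 over vector, by complex and genome (horizontal axis), with its standard error as a vertical line; red points were called higher, blue points lower and grey points did not pass the edgeR test at an adjusted p under 0.05, and black bars are group medians. The called points are above 0 in the mitochondrial groups and below 0 in nuclear complexes IV and V.

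Complex I, the NADH dehydrogenase, had 36 nuclear members tested, of which 4 rose and 3 fell. These shares, 11.1% and 8.33%, were near the 10.0% and 11.4% of all genes tested. Of the higher calls, 2 were core subunits of the arm that carries the flavin and the iron-sulfur clusters. NDUFV1 (chromosome 11, 67605653 to 67612554), which binds NADH and the flavin, had 169.6, 173 and 172 CPM in the ELAPOR1 libraries, against 151, 164 and 154 CPM in the vector libraries. The groups did not overlap, and the log2 fold change was 0.13 ± 0.039 (SE), edgeR adjusted p = 0.00756. NDUFS3, a core subunit of the peripheral arm, had 79.5, 85.2 and 91.6 CPM in the ELAPOR1 libraries, against 72.7, 76.7 and 81.1 CPM in the vector libraries. Its highest vector library lay above its lowest ELAPOR1 library, and the log2 fold change was 0.16 ± 0.052 (SE), edgeR adjusted p = 0.0225. Of other core genes, NDUFS1, NDUFS7, NDUFS8 and NDUFV2 did not pass, with log2 fold changes from -0.13 (NDUFS7) to -0.0071 (NDUFS1).

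Among the 29 accessory complex I genes tested, 2 rose and 3 fell, 6.90% and 10.3%, against 10.0% and 11.4% of all genes. NDUFB10 (chromosome 16, 1959538 to 1961975), a subunit of the membrane arm, had 36.5, 39.5 and 35.1 CPM in the ELAPOR1 libraries, against 31.6, 29.7 and 35.1 CPM in the vector libraries. The groups were separated by a small gap, and the log2 fold change was 0.21 ± 0.075 (SE), edgeR adjusted p = 0.0339. NDUFS6, a zinc-binding subunit added late in assembly, had 73.1, 76.9 and 88.4 CPM in the ELAPOR1 libraries, against 64.9, 75.8 and 72.4 CPM in the vector libraries. Its groups overlapped, and the log2 fold change was 0.16 ± 0.056 (SE), edgeR adjusted p = 0.029. In the lower direction, NDUFB4, NDUFA5 and NDUFB9, all accessory subunits, had log2 fold changes of -0.13 (adjusted p = 0.0403), -0.12 (adjusted p = 0.0481) and -0.12 (adjusted p = 0.027) by edgeR. NDUFB9 averaged 126 ± 3.20 CPM in ELAPOR1 cells and 137 ± 2.29 CPM in vector cells (SD, n = 3 each), with all ELAPOR1 libraries below all vector libraries. NDUFA5 was arranged likewise and NDUFB4 was not. Of these 7 calls, that of NDUFV1 was lost under 4 of 19 alternatives and the other 6 under 9 to 12. NDUFA1, the nuclear complex I gene with the highest level at 209.7 ± 3.16 FPKM in ELAPOR1 cells and 211 ± 5.87 FPKM in vector cells, had a log2 fold change of 0.0086 ± 0.048 (SE), edgeR adjusted p = 0.932. NDUFA7 had the lowest counts of those tested, 29 to 63 per library, and a log2 fold change of 0.30 ± 0.28 (SE), edgeR adjusted p = 0.512, the widest error among the members tested.

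Complex II, succinate dehydrogenase, is wholly nuclear and none of its 4 genes passed the test. SDHA, the flavoprotein, and SDHB, the iron-sulfur subunit, had log2 fold changes of 0.079 (adjusted p = 0.255) and 0.057 (adjusted p = 0.479) by edgeR, and the membrane anchors SDHC and SDHD had -0.023 (adjusted p = 0.769) and -0.037 (adjusted p = 0.634). SDHC had the highest level of the 4, 64.1 ± 0.610 FPKM in ELAPOR1 cells and 66.1 ± 1.69 FPKM in vector cells. Groups overlapped in all 4.

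Complex III, the cytochrome bc1 complex, had 1 riser among 9 nuclear genes tested and no gene that fell. The share of risers, 11.1%, was near the 10.0% of all genes, and 11.4% of all genes fell. UQCRC2 (chromosome 16, 21953288 to 21983660), a large core protein on the matrix side, had 168, 156 and 153 CPM in the ELAPOR1 libraries, against 146, 143 and 143 CPM in the vector libraries. The groups did not overlap, and the log2 fold change was 0.14 ± 0.040 (SE), edgeR adjusted p = 0.00493, a call lost under 4 of 19 alternatives. Its partner UQCRC1 had 227, 224 and 224 CPM in the ELAPOR1 libraries, against 210.0, 233 and 229 CPM in the vector libraries, with overlapping groups and a log2 fold change of 0.0065 ± 0.036 (SE), edgeR adjusted p = 0.933. UQCRFS1, the Rieske iron-sulfur protein, had 3 ELAPOR1 libraries below the vector libraries and a log2 fold change of -0.088 ± 0.046 (SE), edgeR adjusted p = 0.179. UQCRH, the hinge protein, had the highest level of the nuclear complex III genes at 86.0 ± 1.93 FPKM in ELAPOR1 cells and 86.2 ± 5.57 FPKM in vector cells, with a log2 fold change of 0.020 ± 0.045 (SE), edgeR adjusted p = 0.817. Its near-copy UQCRHL stood at -0.12 ± 0.12 (SE), edgeR adjusted p = 0.533, and counts of the pair are uncertain because reads may match both. UQCRFS1-DT, a divergent noncoding transcript that the symbol rule takes in, had 1 count in all.

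Complex IV, cytochrome c oxidase, had 5 genes that fell among 12 tested and none that rose. The share that fell was 41.7%, against 11.4% of all genes, and 10.0% of all genes rose. COX7B (chromosome X, 77899440 to 77907376), a small membrane subunit, had 134, 125 and 139 CPM in the ELAPOR1 libraries, against 153, 163 and 158 CPM in the vector libraries. All ELAPOR1 libraries were below all vector libraries, and the log2 fold change was -0.26 ± 0.041 (SE), edgeR adjusted p = 8.55e-07. NDUFA4 (chromosome 7, 10931943 to 10940153), named for complex I but now assigned to complex IV, had 165, 154 and 154 CPM in the ELAPOR1 libraries, against 176, 185 and 193 CPM in the vector libraries. The groups again did not overlap, and the log2 fold change was -0.23 ± 0.039 (SE), edgeR adjusted p = 4.54e-06. Both calls held under all 19 alternatives. COX7A2, the isoform of subunit VIIa found in most tissues, had 87.8, 82.8 and 79.2 CPM in the ELAPOR1 libraries, against 93.5, 101 and 90.7 CPM in the vector libraries, a log2 fold change of -0.19 ± 0.050 (SE), edgeR adjusted p = 0.00206. COX7A2L, its relative that joins complexes III and IV into supercomplexes, had 94.3, 90.0 and 89.1 CPM in the ELAPOR1 libraries, against 103, 97.8 and 99.6 CPM in the vector libraries, a log2 fold change of -0.14 ± 0.047 (SE), edgeR adjusted p = 0.0273. COX5A, which sits on the matrix side, had 96.0, 91.9 and 89.6 CPM in the ELAPOR1 libraries, against 98.1, 106 and 100.2 CPM in the vector libraries, a log2 fold change of -0.13 ± 0.047 (SE), edgeR adjusted p = 0.0312. None of the 3 had overlapping groups, and their calls were lost under 2, 7 and 7 of 19 alternatives, in that order.

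The other 7 complex IV genes tested had log2 fold changes between -0.044 (COX6A1) and 0.069 (COX7C), and all 7 had overlapping groups. COX8A had the highest level of the nuclear complex IV genes, 381 ± 11.2 FPKM in ELAPOR1 cells and 386 ± 17.9 FPKM in vector cells, and a log2 fold change of 0.0036 ± 0.038 (SE), edgeR adjusted p = 0.967. COX4I1, which takes part in control of the enzyme by ATP, had a log2 fold change of -0.018 ± 0.037 (SE), edgeR adjusted p = 0.802, and COX6B1, on the outer face, had -0.028 ± 0.047 (SE), edgeR adjusted p = 0.752. Tissue isoforms were nearly silent. The muscle and heart isoforms COX7A1 and COX6A2 had 17 and 0 counts in all libraries together, the lung isoform COX4I2 had 0, and the testis isoforms COX6B2, COX8C and COX7B2 had 11, 2 and 0. In SW620 cells the counts lay with COX7A2, COX6A1, COX4I1, COX6B1, COX8A and COX7B, the isoforms found in most tissues.

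Complex V, the ATP synthase, had 6 nuclear genes that fell among 18 tested and none that rose. The share that fell was 33.3%, against 11.4% of all genes, and 10.0% of all genes rose. The c-ring, which turns as protons pass, is made of identical mature peptides encoded by 3 genes. ATP5MC2 (chromosome 12, 53632726 to 53677408) had 140.0, 142 and 139.9 CPM in the ELAPOR1 libraries, against 157, 157 and 172 CPM in the vector libraries, a log2 fold change of -0.20 ± 0.040 (SE), edgeR adjusted p = 5.70e-05. ATP5MC1 had 47.7, 44.3 and 44.9 CPM in the ELAPOR1 libraries, against 49.7, 56.6 and 51.4 CPM in the vector libraries, a log2 fold change of -0.21 ± 0.063 (SE), edgeR adjusted p = 0.0107. ATP5MC3 had 132, 133 and 136 CPM in the ELAPOR1 libraries, against 135, 138 and 130.0 CPM in the vector libraries, with overlapping groups and a log2 fold change of -0.0089 ± 0.041 (SE), edgeR adjusted p = 0.918. Both called c-subunit genes had all ELAPOR1 libraries below the vector libraries. Per exonic length, ATP5MC2 averaged 35.7 ± 0.455 FPKM in ELAPOR1 cells and 41.8 ± 2.15 FPKM in vector cells and ATP5MC3 34.1 ± 0.608 FPKM in ELAPOR1 cells and 34.8 ± 1.07 FPKM in vector cells (SD, n = 3 each).

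In the membrane part and the stator, ATP5ME (subunit e, chromosome 4, 672436 to 674330) and ATP5MG (subunit g), which bind the membrane region where the enzyme forms dimers, both fell. ATP5ME had 27.0, 28.7 and 25.3 CPM in the ELAPOR1 libraries, against 36.7, 34.6 and 27.0 CPM in the vector libraries. The lowest vector library lay inside the ELAPOR1 range, and the log2 fold change of -0.28 ± 0.085 (SE), edgeR adjusted p = 0.00966, was the most negative among the members. ATP5MG had 176, 171 and 177 CPM in the ELAPOR1 libraries, against 189, 201 and 195 CPM in the vector libraries, with no overlap and a log2 fold change of -0.16 ± 0.037 (SE), edgeR adjusted p = 8.73e-04. ATP5PB, the b subunit of the peripheral stalk, had 162, 167 and 163 CPM in the ELAPOR1 libraries, against 165, 182 and 189 CPM in the vector libraries, with overlapping groups and a log2 fold change of -0.12 ± 0.040 (SE), edgeR adjusted p = 0.0181. The other stalk genes ATP5PO, ATP5PD and ATP5PF did not pass, at 0.031 (adjusted p = 0.805), -0.023 (adjusted p = 0.8) and -0.019 (adjusted p = 0.846) by edgeR. ATP5MJ, a small proteolipid of the membrane part, had all ELAPOR1 libraries below the vector libraries and a log2 fold change of -0.14 ± 0.057 (SE), edgeR adjusted p = 0.0606.

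Of the 5 genes of the F1 head, where ATP is made, 1 fell. ATP5F1C (chromosome 10, 7788147 to 7807815), the central gamma shaft, had 176, 172 and 176 CPM in the ELAPOR1 libraries, against 191, 190.4 and 193 CPM in the vector libraries. The groups did not overlap, and the log2 fold change was -0.13 ± 0.037 (SE), edgeR adjusted p = 0.00501. The catalytic beta subunit ATP5F1B had the highest level of all nuclear members, 581 ± 3.35 FPKM in ELAPOR1 cells and 573 ± 10.1 FPKM in vector cells. All its ELAPOR1 libraries (1310.3, 1305 and 1321 CPM) lay above all its vector libraries (1248, 1277 and 1297 CPM), and the log2 fold change was 0.042 ± 0.025 (SE), edgeR adjusted p = 0.253, not past the threshold. ATP5F1A, ATP5F1D and ATP5F1E had overlapping groups. ATP5IF1, the inhibitor protein of the enzyme, had 92.6, 85.4 and 93.4 CPM in the ELAPOR1 libraries, against 87.7, 87.3 and 84.0 CPM in the vector libraries, a log2 fold change of 0.065 ± 0.049 (SE), edgeR adjusted p = 0.382. The calls of ATP5MC2, ATP5MG and ATP5F1C held under all 19 alternatives, and those of ATP5MC1, ATP5ME and ATP5PB were lost under 5, 7 and 9. ATP5MGL had 4 counts and the readthrough ATP5MF-PTCD1 had 16 in all libraries together.

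Promoters are shown for called nuclear members because many respiratory genes are known to be driven by NRF1 and ETS factors. RefSeq promoters (GRCh38.p14, 250 bases before to 50 after the start) were found for 68 of the 85 nuclear members. Only the first listed promoter of a member was used, while the set of all promoters was not reduced in this way. That start can differ from the counted gene's. The NDUFA5 window (chr7:123601602-123601901) lay outside its gene (123536997 to 123557904). The NDUFS3 window (chr11:47578824-47579123) lay inside its gene (47565336 to 47584562), away from the start. The letters GCGCANGCG of the NRF1 motif, searched on both strands, stood in 23 of the 68 (33.8%) and in 7.52% of all 35116 promoters. CCGGAAG, an ETS core, stood in 20 (29.4%) and in 10.3% of all, and AAGATGGCG, of YY1, in 8 (11.8%) and in 1.75% of all. The NRF1 letters were in 1 of 5 promoters of genes called higher, 4 of 12 of genes called lower and 16 of 48 of genes that did not pass. For ETS these were 1 of 5, 2 of 12 and 17 of 48, and for YY1 0 of 5, 0 of 12 and 8 of 48. The other 3 promoters belonged to genes that were not tested. Differences between these shares were not tested, and a match describes letters, not a bound site. The NRF1 letters can overlap their own reverse complement, so a run of capitals can hold matches on both strands, and matches of different motifs were counted separately.

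The 3 promoters of fallen genes below carry several NRF1 matches or the 10-base palindrome, and NDUFS6 is the only called riser with an NRF1 match. Capitals mark NRF1 matches and, in ATP5ME, also the ETS match CTTCCGG, the reverse complement of the letters searched. COX7B and the risers NDUFV1 and UQCRC2 held none of the 3 motifs in this window.
NDUFS6 promoter, chr5:1801157-1801456, plus strand: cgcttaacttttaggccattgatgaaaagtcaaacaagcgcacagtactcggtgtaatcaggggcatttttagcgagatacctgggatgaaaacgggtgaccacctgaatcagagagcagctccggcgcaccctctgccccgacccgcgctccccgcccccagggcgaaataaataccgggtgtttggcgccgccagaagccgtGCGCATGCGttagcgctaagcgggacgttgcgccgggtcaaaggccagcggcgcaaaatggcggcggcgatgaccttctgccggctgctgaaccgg
ATP5ME promoter, chr4:674227-674526, minus strand: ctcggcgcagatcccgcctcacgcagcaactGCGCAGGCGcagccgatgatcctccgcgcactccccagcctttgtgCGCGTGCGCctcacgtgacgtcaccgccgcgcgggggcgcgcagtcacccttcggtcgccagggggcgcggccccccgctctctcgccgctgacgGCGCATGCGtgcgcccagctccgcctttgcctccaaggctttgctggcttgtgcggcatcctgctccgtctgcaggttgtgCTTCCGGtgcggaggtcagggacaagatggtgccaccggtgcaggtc
NDUFB4 promoter, chr3:120596086-120596385, plus strand: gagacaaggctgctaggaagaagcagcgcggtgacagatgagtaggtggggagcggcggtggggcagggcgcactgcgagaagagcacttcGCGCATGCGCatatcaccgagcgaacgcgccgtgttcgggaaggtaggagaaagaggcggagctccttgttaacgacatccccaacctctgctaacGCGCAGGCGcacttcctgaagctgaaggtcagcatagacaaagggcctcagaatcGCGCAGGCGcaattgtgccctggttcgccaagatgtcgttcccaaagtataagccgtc
ATP5F1C promoter, chr10:7787927-7788226, plus strand: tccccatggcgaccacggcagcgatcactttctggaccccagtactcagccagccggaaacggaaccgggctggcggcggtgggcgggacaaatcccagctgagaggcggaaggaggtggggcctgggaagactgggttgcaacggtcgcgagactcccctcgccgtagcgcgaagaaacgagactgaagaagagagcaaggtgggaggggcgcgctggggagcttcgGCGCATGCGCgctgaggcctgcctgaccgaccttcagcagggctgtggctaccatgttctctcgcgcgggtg

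Genes that act beside the subunits were taken from lists compiled for their roles. Among electron carriers and coenzyme Q genes, 0 of 20 tested rose and 2 fell, with a median log2 fold change of 0.076. CYCS, cytochrome c, which carries electrons to complex IV, had 414, 416 and 422 CPM in the ELAPOR1 libraries, against 483, 519.8 and 499.8 CPM in the vector libraries. The groups were well apart, the log2 fold change was -0.26 ± 0.031 (SE), edgeR adjusted p = 9.35e-11, and the call held under all 19 alternatives. SQOR, which passes electrons from sulfide to ubiquinone, had 11.4, 9.30 and 12.2 CPM in the ELAPOR1 libraries, against 15.2, 15.5 and 15.04 CPM in the vector libraries, a log2 fold change of -0.48 ± 0.12 (SE), edgeR adjusted p = 0.00117. Of 58 assembly factors 5 rose and 4 fell (median 0.017). The complex I factors TMEM186 and NDUFAF3 rose, by 0.40 (adjusted p = 0.00381) and 0.35 (adjusted p = 0.0098) on the log2 scale, and TMEM126A fell, at -0.33 (adjusted p = 0.00193), by edgeR. The higher count of assembly factors was 3 without ELAPOR1 replicate 2, ELAPOR1 replicate 3 or vector replicate 3. The lower count was 1 without ELAPOR1 replicate 1, and 2 without ELAPOR1 replicate 2, ELAPOR1 replicate 3, vector replicate 2 or vector replicate 3.

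Of 35 genes of mitochondrial DNA replication, transcription and RNA processing, 3 rose and 1 fell (median 0.024). GRSF1, a protein of mitochondrial RNA granules, fell, averaging 181 ± 6.18 CPM in ELAPOR1 cells and 206 ± 7.25 CPM in vector cells (SD, n = 3 each), a log2 fold change of -0.19 ± 0.037 (SE), edgeR adjusted p = 6.20e-05. FASTKD3 and MTERF4, which act on mitochondrial RNA and ribosomes, rose, at 0.23 (adjusted p = 0.0204) and 0.22 (adjusted p = 0.0333) by edgeR. Without vector replicate 3, 1 gene of this list was called higher. Among 13 tested regulators 4 rose and 2 fell (median 0.0087). NRF1, whose motif was searched above, had 21.8, 18.1 and 17.8 CPM in the ELAPOR1 libraries, against 25.7, 23.2 and 23.4 CPM in the vector libraries, a log2 fold change of -0.33 ± 0.093 (SE), edgeR adjusted p = 0.00582. The coactivator PPARGC1B had 10.3, 9.66 and 11.3 CPM in the ELAPOR1 libraries, against 8.12, 7.50 and 8.37 CPM in the vector libraries, a log2 fold change of 0.38 ± 0.13 (SE), edgeR adjusted p = 0.0305. Its relative PPARGC1A had only 9, 18 and 12 counts in ELAPOR1 libraries and 3, 1 and 8 counts in vector libraries, with a log2 fold change of 1.72 ± 0.63 (SE), edgeR adjusted p = 0.0391 that became 2.79 without vector replicate 3. The higher count of regulators was 1 without vector replicate 1 and 2 without vector replicate 2 or any 1 ELAPOR1 library. The lower count was 0 without ELAPOR1 replicate 3 and 1 without ELAPOR1 replicate 1, ELAPOR1 replicate 2, vector replicate 1 or vector replicate 3.

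Of 77 mitochondrial ribosomal protein genes tested 5 rose and 9 fell (median -0.014). MRPS27 and MRPL38 rose, with log2 fold changes of 0.26 (adjusted p = 1.12e-06) and 0.28 (adjusted p = 0.00981), and MRPL41 fell, at -0.24 (adjusted p = 0.049), by edgeR. The higher count was 3 without vector replicate 2 or vector replicate 3. The lower count was 1 without ELAPOR1 replicate 3, 2 without vector replicate 2, 4 without vector replicate 3 and 5 without ELAPOR1 replicate 1 or ELAPOR1 replicate 2. Of 14 tricarboxylic acid cycle genes, which supply NADH and succinate, 2 rose and 2 fell (median -0.014). IDH2 and OGDH fell, at -0.21 (adjusted p = 7.43e-04) and -0.16 (adjusted p = 0.00429), and SUCLG2 rose, at 0.17 (adjusted p = 0.0146). Among the cycle genes, none was called higher without ELAPOR1 replicate 1, ELAPOR1 replicate 3, vector replicate 1 or vector replicate 3, 1 was without ELAPOR1 replicate 2, and 1 was called lower without ELAPOR1 replicate 3. Of 28 outer membrane, inner membrane and import genes 6 rose and 7 fell (median -0.014). VDAC1, the main outer membrane channel, had 261, 261 and 262 CPM in the ELAPOR1 libraries, against 309.5, 315 and 323 CPM in the vector libraries, a log2 fold change of -0.27 ± 0.033 (SE), edgeR adjusted p = 3.36e-10. The import receptor subunits TOMM5 and TOMM22 moved in opposite directions, at -0.30 (adjusted p = 2.66e-04) and 0.22 (adjusted p = 2.40e-04). In this list 1 gene was called higher without ELAPOR1 replicate 1, and 4 were called lower without vector replicate 2 or vector replicate 3. The calls of CYCS, TMEM126A, GRSF1, MRPS27, VDAC1, TOMM5 and TOMM22 held under all 19 alternatives. That of PPARGC1A was lost under 9 of the 14 that tested it, and those of the other called genes named from these lists under 1 to 11 of 19. All shares of these lists called higher or lower are to be read against 10.0% and 11.4% of all genes.

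Part of these calls changed with single libraries left out, and so did calls over all genes. Against 3427 with all libraries, calls over all genes numbered 2799, 2759 and 2724 without ELAPOR1 replicate 1, 2 or 3. They numbered 3187, 2808 and 2723 without vector replicate 1, 2 or 3. Counts of members and of the lists above in these fits are to be read against those totals. Nuclear members called higher and lower numbered 3 and 11 without ELAPOR1 replicate 1, 3 and 9 without ELAPOR1 replicate 2, and 3 and 7 without ELAPOR1 replicate 3. They numbered 1 and 14 without vector replicate 1, 3 and 7 without vector replicate 2, and 5 and 9 without vector replicate 3. Mitochondrially encoded mRNAs called higher numbered 3 without ELAPOR1 replicate 2, where MT-ND5 and MT-ATP6 were lost, and 4 to 6 without any other library. In each of these fits more calls were lost than the examples given next. The calls of UQCRC2 and PPARGC1A were lost without ELAPOR1 replicate 1, and those of NDUFS3, ATP5MC1 and NDUFAF3 without ELAPOR1 replicate 2. Those of NDUFS6, ATP5ME, TMEM186, OGDH and NRF1 were lost without ELAPOR1 replicate 3. Those of NDUFV1, NDUFS6 and ATP5ME were lost without vector replicate 1, and those of COX7A2, ATP5MC1 and ATP5ME without vector replicate 2. Without vector replicate 3, those of MRPL38 and MTERF4 were lost. NDUFS6 had a log2 fold change of 0.078 without ELAPOR1 replicate 3 and 0.097 without vector replicate 1, and NDUFS3 had 0.10 without ELAPOR1 replicate 3. MT-ND5 had 0.11 without ELAPOR1 replicate 1 and 0.048 without ELAPOR1 replicate 2. MT-ATP8 passed the test, at -0.18 without ELAPOR1 replicate 3 and at -0.15 without vector replicate 2, and MT-ND4L passed at 0.12 without vector replicate 1.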

How the data were processed

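RNA was measured in 3 ELAPOR1 and 3 vector libraries. The authors deposited raw read counts per gene. The submitters' processing notes name the GRCh38 build, DESeq2, HTSeq 0.6.1, HISAT2 2.0.1 and cutadapt 1.9.1. The authors also deposited FPKM, which equals count over exonic length over library total to within 0.01 in all 142222 values compared. Their comparison table holds deposited log2 fold changes, p-values and adjusted p-values, and a standard error, which is a deposited score not used here. Columns were matched by name, K being read as the construct (ELAPOR1's older symbol is KIAA1324) with NC for negative control. The sources used here do not say if counting was stranded. Without strand, reads from opposite strands at the same place, as at MT-ND6, cannot be told apart.

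The test was that of edgeR 4.0.16 under R 4.3.3 (filterByExpr, TMM, quasi-likelihood test, Benjamini-Hochberg over 16003 genes, adjusted p under 0.05), and a standard error is the absolute log2 fold change divided by the root of F. CPM uses TMM factors. Levels between genes were compared in FPKM. Alternatives were DESeq2 1.42.0 (default and local trend), RLE factors, library sizes alone, other filters, adjusted p under 0.01, ELAPOR1 or mitochondrial genes left out of scaling, a replicate block, limma 3.58.1 on log2(FPKM + 0.1) and log2(FPKM + 1) (genes reaching 0.5 FPKM in 3 libraries, or all), and each library left out. DESeq2 with a local trend and the count without MT-ATP6 and MT-ATP8 were chosen after seeing the data. The fit was tested on simulated data. The changes planted there were larger than those of every called member, so it does not show how well changes this small are found. Pairs of libraries in a group gave a mean chi-square per gene of 2.45 to 3.64, above sampling noise, so none was merged.

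Members and lists were chosen with earlier results of these data known. Named members were all mitochondrially encoded ones, per complex up to 4 nuclear members called in each direction, the highest level and the lowest count, tissue isoforms and ATP5IF1, and up to 3 called genes per list, or the gene with the smallest p where none was called. Other called members, and members named to complete a complex, were named after their values were seen. No set test was run. A few values of single members are not reported here.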

Additional observations from a re-analysis of the deposited data

How the results depend on the processing

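No called member reversed sign under the 19 alternatives. The 5 nuclear calls kept under all of them were COX7B, NDUFA4, ATP5MC2, ATP5MG and ATP5F1C, 14 nuclear calls were lost under at least 1, and each of the 5 mitochondrial calls was lost under at least 1. The causes were not tested. Over all genes, 3427 calls became 2245 at an adjusted p under 0.01 and 2098, 2133 and 1378 with limma on log2(FPKM + 0.1), on log2(FPKM + 1) and on log2(FPKM + 1) without a filter. In the same order of limma fits, mitochondrial members called higher numbered 3, 3 and 0, and nuclear members called higher 0, 0 and 0. The mitochondrial median log2 fold change was 0.0274 each time, beside all-gene medians of -0.021, -0.017 and -0.00073. Nuclear members called lower numbered 5 in the limma fit without a filter. At an adjusted p under 0.01, 2 nuclear members were higher and 7 lower. DESeq2 gave 2 and 6, with 2364 calls over all genes. Library sizes alone gave 2 nuclear members higher, 1 mitochondrial member lower (MT-ATP8) and a mitochondrial median of 0.0273, with 3534 calls over all genes. The all-gene median was then -0.017, against 0.0041 in the main fit. With ELAPOR1 left out of the total, the difference in mitochondrial share was 0.329 percentage points, against 0.211. With each library left out in turn, mitochondrial members called higher ranged from 3 to 6 and lower from 0 to 1, nuclear members higher from 1 to 5 and lower from 7 to 14, the mitochondrial median from 0.0426 to 0.0623, and the nuclear median from -0.051 to -0.013.

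The labels give both groups the numbers 1 to 3. Deviations of same-numbered libraries correlated at -0.016, -0.026 and -0.016, so no effect shared by a number was seen. The labels do not say whether the libraries were paired, and correlations this near 0 cannot settle it. A fit with the replicate block called 3361 genes, 6 mitochondrial members higher, and 5 nuclear members higher and 14 lower. No ELAPOR1 library correlated best with the vector library of its own number.

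Standard errors of the members' log2 fold changes ran from 0.018 to 0.28, so a member that did not pass is not shown to be equal in both groups.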
